A study of Mus musculus with 2 samples.

Results

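Myeloid C-type lectin receptors were followed in single GR-1+ cells from anti-PD1-treated 4T1 mammary tumors. The genes were taken by symbol: Clec4d, Clec4e, Clec4n, Clec4a1, Clec4a2, Clec4a3, Clec5a, Clec10a and Clec12a were found, 9 of the 10 named genes among the 28692 genes listed, and Clec7a was not analysed here. Their levels are described by lineage, by cell state and by library.

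The 2 libraries held GR-1+ cells, isolated with magnetic beads from tumors of the mammary fat pad, and the GR-1 antibody takes both Ly6C and Ly6G bearing cells. The tumors grew in female BALB/c mice, 8 to 10 weeks old at injection. In both groups the mice received anti-PD1, and tumors were taken after 2 weeks of treatment. 4T1p is the parental line of this mouse mammary carcinoma, resistant to anti-PD1, and 4T1m is a polyclonal population derived from it with the mutagen MNNG, which was sensitive. There was 1 library per tumor type, the number of animals pooled in each was not given in the sources used here, and untreated tumors were not analysed here. No difference between the libraries could therefore be tested, and all intervals below are 95% intervals that cover counting error only.

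C-type lectin receptors are surface proteins of myeloid cells that bind sugars and lipids of microbes and of damaged cells. The activating receptors Clec4e (Mincle), Clec4d (MCL) and Clec4n (Dectin-2) signal through the Fc receptor gamma chain, encoded by Fcer1g, and Clec5a (MDL-1) signals through DAP12, encoded by Tyrobp. Both adaptors recruit the kinase Syk, which acts through Card9, Bcl10 and Malt1 on NF-kB and on inflammatory cytokine genes. Clec12a (MICL) and Clec4a2 (DCIR1) carry inhibitory motifs and restrain myeloid activation, whereas Clec10a (MGL1) binds galactose-type sugars and is known from macrophages and dendritic cells.

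Of the 9 genes, 8 lie on chromosome 6 (GRCm38 positions, annotation GENCODE vM21). A row of 6 of them spans 368 kb at chr6:122921848-123289870, in the order Clec4a1, Clec4a3, Clec4a2, Clec4n, Clec4d and Clec4e. Clec4d (chr6:123262111-123275265, plus strand) and Clec4e (chr6:123281789-123289870, minus strand) are the closest neighbours, with their 3′ ends facing each other 6.52 kb apart, and Clec4n ends 15.1 kb before Clec4d. Clec5a (chr6:40574894-40585821) and Clec12a (chr6:129342691-129365303) lie elsewhere on the chromosome, and Clec10a lies on chromosome 11 (chr11:70156197-70170834). None of the 9 overlapped another counted gene. In the last 600 bases of their transcripts, 15.4% of the 50-base words of Clec10a also occur in Mgl2, 8.58% of those of Clec4a2 occur in Clec4a4 or Clec4b1, and 1.44% of those of Clec4n occur in Gm44147, so a part of the reads of these 3 genes could be shared with those copies. The other 6 shared no such word.

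RefSeq promoter sequences (GRCm38.p6) were at hand for 7 of the 9 genes. Those of Clec4e and Clec4d are shown because their levels correlated at 0.96 over the 18 combinations of state and library. That of Clec4a1 is shown because its level lay the opposite way between the lineages. Each is the 250 bases before the transcription start, 5′ to 3′, with capitals marking the letters GAGGAA, the core bound by PU.1, or TTGCNNAA, a C/EBP site, on either strand.
Clec4e promoter, chr6:123289872-123290121, minus strand: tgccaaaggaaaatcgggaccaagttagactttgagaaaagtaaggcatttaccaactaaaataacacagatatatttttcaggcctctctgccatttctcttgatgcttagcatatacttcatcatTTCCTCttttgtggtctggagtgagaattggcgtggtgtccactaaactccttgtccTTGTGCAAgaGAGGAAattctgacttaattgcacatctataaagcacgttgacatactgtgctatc
Clec4d promoter, chr6:123261857-123262106, plus strand: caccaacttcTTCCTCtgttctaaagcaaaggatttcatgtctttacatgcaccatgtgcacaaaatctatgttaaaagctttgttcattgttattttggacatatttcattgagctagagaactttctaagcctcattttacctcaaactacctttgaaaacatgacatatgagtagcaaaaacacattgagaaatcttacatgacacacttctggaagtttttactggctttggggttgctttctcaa
Clec4a1 promoter, chr6:122921598-122921847, plus strand: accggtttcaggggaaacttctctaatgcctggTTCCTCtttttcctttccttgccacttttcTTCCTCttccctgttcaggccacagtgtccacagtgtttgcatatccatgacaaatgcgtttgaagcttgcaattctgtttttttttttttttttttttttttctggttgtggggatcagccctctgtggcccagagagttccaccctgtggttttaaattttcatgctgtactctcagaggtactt
The letters GAGGAA occurred on either strand in the promoters of 6 of these 7 genes, Clec4a2 lacking them, and in 23.3% of 32851 promoters of the same length. Clec4a3 had 2 promoters, and only the downstream one held GAGGAA. A gene was counted when any of its promoters held the letters, whereas the shares of all promoters count each promoter. TTGCNNAA occurred in Clec4e and Clec12a, 2 of the 7, and in 9.56% of all promoters. TATAAA matches were present in Clec4a2, Clec4e and Clec5a, and no matches of different motifs overlapped. In Clec4e the TTGCNNAA match, on the reverse strand, began 66 bases before the start, next to a GAGGAA match at 56 bases and a TATAAA match at 29 bases, letters found in 12.4% of promoters. The AP-1 letters TGANTCA were found in Clec12a alone among the 7 and in 6.75% of all promoters. An NF-kB motif and an interferon-response motif were found in 0 of the 7 genes, and in 1.21% and 2.98% of all promoters. These matches describe letters and not bound sites.

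The library labelled 4T1p held 1641 barcodes with a median of 2066 UMIs (unique molecular identifiers, each 1 counted RNA molecule), and the library labelled 4T1m held 2749 with a median of 2763. These medians are exchanged between the conditions relative to the study's methods, so every direction between the libraries, for receptors, states and lists alike, rests on the deposited labels and would turn if the 2 labels were exchanged. 4T1p and 4T1m below mean the libraries so labelled. After filters and doublet removal 1115 and 2048 cells were kept, no barcode was shared by the libraries, and a Ptprc (CD45) UMI was present in 45.5% of kept 4T1p and 75.2% of kept 4T1m cells. Clusters were drawn without genes whose symbol begins with Clec and without a list of 31 other C-type lectin-like receptor genes. Genes with a C-type lectin domain outside these were not left out. By marker genes, 1856 cells were monocytic-like (markers such as Csf1r and C1qa, 862 in 4T1p and 994 in 4T1m), 1245 granulocytic-like (markers such as S100a8 and Cxcr2, 244 and 1001), 34 B cell-like and 28 T cell-like. Summed UMIs were 11758436 in monocytic-like and 3881747 in granulocytic-like cells.

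Between the lineages the receptors did not all lie the same way. Clec4d and Clec4e were more than 2-fold higher in granulocytic-like cells, and Clec4n, Clec4a1, Clec4a3 and Clec10a were more than 2-fold lower. All 8030 genes with at least 100 UMIs summed over both lineages were compared. Of these, 10.8% were more than 2-fold higher and 53.1% more than 2-fold lower in granulocytic-like cells. The median log2 ratio of these genes was -1.15, so each receptor's ratio is also given relative to that median. In granulocytic-like cells alone 3043 genes had at least 100 UMIs, against 7511 in monocytic-like cells alone. Many genes thus passed the limit through monocytic-like cells, which held more UMIs. The median, the shares and the ratios relative to the median depend on that limit, and its part in them was not tested. With the 9 receptors the median log2 ratio was -0.69.

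Clec4e, the receptor for mycobacterial cord factor and for a nuclear protein released by dying cells, stood at 3556 counts per 1000000 UMIs (CPM) in granulocytic-like cells of 4T1p and 3489.5 in those of 4T1m, against 236 and 514 in the monocytic-like cells. The summed level was thus higher in the granulocytic-like cells of each library than in the monocytic-like cells of either. The share of all genes with such an order was not computed. The log2 ratio of granulocytic-like over monocytic-like cells was 3.11 (95% interval 3.07 to 3.16), an 8.66-fold higher level, and 4.27 relative to the median of all genes. Cells were also thinned to 1000 UMIs, which left out those with fewer. This kept 1145 of 1245 granulocytic-like and 1329 of 1856 monocytic-like cells. Of these thinned cells, 81.0% of granulocytic-like and 21.7% of monocytic-like cells still had a Clec4e UMI, and no B cell-like or T cell-like cell did.

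Clec4d, which pairs with Clec4e at the protein level, had the same order. Its level was 1135 and 1244 CPM in granulocytic-like cells of 4T1p and 4T1m and 112 and 229.6 in monocytic-like cells. The log2 ratio was 2.74 (2.66 to 2.81), a 6.67-fold higher level, and 3.89 relative to the median of all genes. In thinned cells a Clec4d UMI was present in 66.8% of granulocytic-like and 12.6% of monocytic-like cells.

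Clec4n, the third activating receptor of the row and a sensor of fungal mannans, lay the other way. It stood at 341 (4T1p) and 389 (4T1m) CPM in monocytic-like cells and at 207 and 93.6 in granulocytic-like cells. The log2 ratio was -1.66 (-1.80 to -1.52), but -0.50 relative to the median of all genes and -0.70 with TMM scaling, both within 2-fold. Thinned cells with a UMI made up 26.7% of monocytic-like and 9.96% of granulocytic-like cells.

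The 3 receptors of the DCIR group were lower in granulocytic-like cells by different amounts. Clec4a1 had 48.3 and 40.3 CPM in monocytic-like cells of 4T1p and 4T1m and 14 UMIs in all granulocytic-like cells, a log2 ratio of -3.59 (-4.47 to -2.83). Clec4a3 had 89.6 and 69.2 in monocytic-like cells and 8.69 and 15.6 in granulocytic-like cells, a log2 ratio of -2.45 (-2.87 to -2.05). Relative to the median of all genes these were -2.44 and -1.29. Clec4a2, the member with an inhibitory motif, had 124 and 111 in monocytic-like and 84.4 and 68.9 in granulocytic-like cells, and its log2 ratio of -0.69 (-0.88 to -0.50) became 0.47 relative to the median and 0.27 with TMM scaling, so its direction depends on the scaling.

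Clec5a stood at 96.0 and 148 CPM in monocytic-like cells of 4T1p and 4T1m and at 101 and 73.8 in granulocytic-like cells, so the lineages overlapped. Its log2 ratio of -0.68 (-0.86 to -0.50) became 0.47 relative to the median and 0.28 with TMM scaling. Within 4T1p the log2 ratio was 0.07 (-0.29 to 0.41) and within 4T1m its interval ran from -1.21 to -0.79. Clec12a, an inhibitory receptor known for binding uric acid crystals, had 33.7 and 24.8 CPM in monocytic-like cells and 38.5 and 31.2 in granulocytic-like cells, a log2 ratio of 0.21 (-0.10 to 0.51) whose interval included 0. Relative to the median of all genes it was 1.36, and with TMM scaling 1.17, so Clec12a passed 2-fold higher in granulocytic-like cells with that scaling. The share of all genes that passed with that scaling was not computed. Clec10a had 62 UMIs in the monocytic-like cells of 4T1p and 69 in those of 4T1m, and 0 in all granulocytic-like cells. Against a floor of 3 UMIs over the whole granulocytic-like group, this was an at least 14.4-fold higher level in monocytic-like cells. The log2 bound was -2.70 relative to the median of all genes. A Clec10a UMI was found in 0 of 1245 granulocytic-like cells. The same floor, 3 of 1245 cells, is a share of 0.241% and not a confidence limit.

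**Figure D1:**
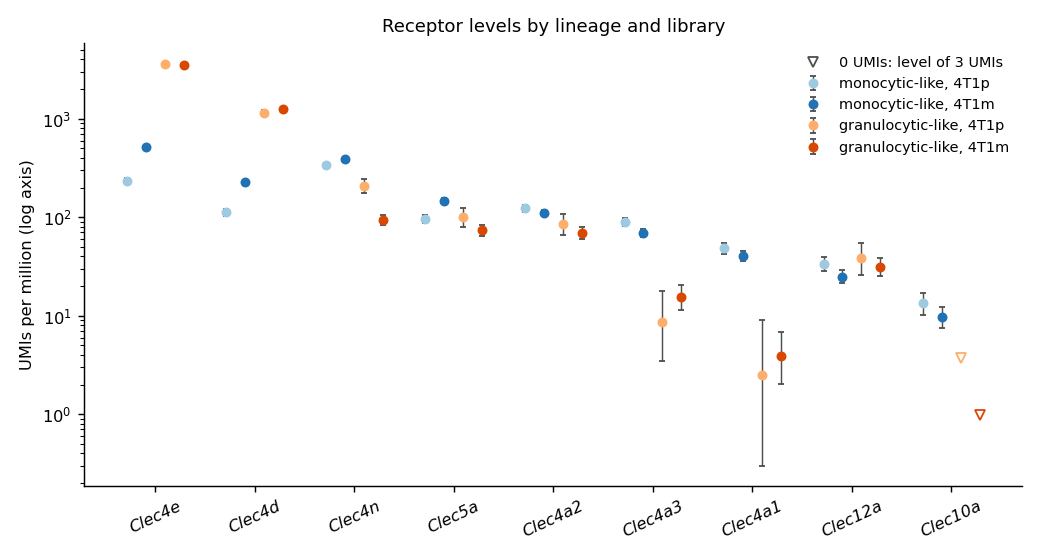
Levels of the 9 receptor genes in CPM on a log axis, in the monocytic-like and granulocytic-like cells of each library, with exact Poisson 95% intervals. The Clec4e points of granulocytic-like cells lie at 3556 and 3489.5, far above the 236 and 514 of monocytic-like cells, while Clec10a has 0 UMIs in granulocytic-like cells and is drawn there at the level of 3 UMIs.

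RNA of other cell types was measured beside these values, and its part in them was not tested. The 34 B cell-like cells, of a median of 3787.5 UMIs, held 2 Clec4e, 1 Clec4d and 1 Clec5a UMI and none of the other 6 receptors. The 28 T cell-like cells, of a median of 5424.5 UMIs, held no Clec4e UMI, 1 Clec4d, 1 Clec4n, 5 Clec10a and 6 Clec12a UMIs, the last 2 genes in 3.57% of the cells each. The summed level of the 8 granulocytic markers was 1019 CPM in monocytic-like and 161470.0 in granulocytic-like cells. Per 100 UMIs of these markers there were 2.17 Clec4e UMIs in granulocytic-like cells and 39.7 in monocytic-like cells, and for Clec4d 0.756 and 18.0. Each of the 8 was lower in monocytic-like cells, from Ly6g (0.595 against 242 CPM) and Cxcr2 (4.51 against 371) to Csf3r (37.8 against 895), Il1r2 (71.9 against 929) and Mmp9 (82.1 against 401). Ly6g was found in 2.53 to 8.06% of the cells in 3 of the 4 granulocytic-like states, while Csf3r was found in 21.9% of Thbs1/Vcan and 39.9% of C6/Ifnb1 cells and Il1r2 in 22.8% and 30.7%. In the other direction, Clec4n made up 155 UMIs per 1000 UMIs of the 10 monocytic markers in granulocytic-like cells and 11.3 in monocytic-like cells.

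Each lineage held several states, named here by the genes that led their clusters. Among granulocytic-like cells, Clec4e and Clec4d were highest in the Mirt1/Il1f9 state, which also led in the inflammatory genes Irg1, Csf1 and Ccl3. In that state Clec4e stood at 5235 CPM, against 2328 in Ccdc126/Ciart, 2168 in Camp/Ngp and 1766 in Slc2a3/Steap4 cells, and the Poisson intervals of Mirt1/Il1f9 (5128 to 5344) and the other 3 did not overlap. Relative to the other granulocytic-like cells the log2 ratio in the Mirt1/Il1f9 state was 1.31 (1.26 to 1.36) for Clec4e, 0.82 (0.74 to 0.91) for Clec4d and 1.88 (1.57 to 2.19) for Clec4n. The median over all genes was 0.14, and 6.7% of them were more than 2-fold higher. Clec4d was at 1609.5, 1263.5, 732 and 1020.4 CPM in the Mirt1/Il1f9, Ccdc126/Ciart, Camp/Ngp and Slc2a3/Steap4 states. Clec4d was thus lowest in Camp/Ngp cells, whereas Clec4e was lowest in Slc2a3/Steap4 cells.

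The Camp/Ngp state expresses genes of the secondary granules, such as Ltf and Lcn2, which are known from immature neutrophils. Cxcr2 was found in 86.9% of these cells, against 14.8 to 54.2% in the other 3 granulocytic-like states. These cells were also deep, with a median of 5302.5 UMIs, and their maturity was not tested. In the Camp/Ngp state the inhibitory receptors were highest among granulocytic-like cells. Clec12a was at 66.2 CPM, against 15.7 to 20.2 in the other 3 states, a log2 ratio to the rest of 1.91 (1.38 to 2.47). Clec4a2 was at 131, against 13.4 to 60.6, a log2 ratio of 1.52 (1.17 to 1.87). Clec4n in contrast was lowest in that state, at 23.2 against 60.6 to 196, a log2 ratio of -2.78 (-3.39 to -2.23). The median over all genes for that state was -0.50, with 7.03% more than 2-fold higher and 27.8% more than 2-fold lower. The Ccdc126/Ciart state had the fewest Clec4a2 and Clec5a UMIs, 6 and 9.

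Among monocytic-like cells, Clec4e and Clec4d were highest in the Thbs1/Vcan state. Clec4e stood there at 692 CPM, at 239.7 in C6/Ifnb1, 149 in Fabp5/Slc25a4, 124 in the proliferating Birc5 state and 41.2 in Tmem176b/Aif1 cells. Clec4d ran from 344 in Thbs1/Vcan through 102 in Fabp5/Slc25a4, 71.4 in C6/Ifnb1 and 30.2 in Birc5 to 13.7 in Tmem176b/Aif1 cells. Against the other monocytic-like cells the log2 ratio in the Thbs1/Vcan state was 1.84 (1.74 to 1.93) for Clec4e and 2.39 (2.24 to 2.54) for Clec4d, and in the Tmem176b/Aif1 state it was -3.38 (-3.95 to -2.86) and -3.82 (-4.88 to -2.94). In the Thbs1/Vcan state the median over all genes was -0.0025, and 5.61% were more than 2-fold higher. In the Tmem176b/Aif1 state it was -0.34, and 29.3% were more than 2-fold lower. Thbs1 and Vcan are carried by inflammatory monocytes, and Il6 also led that cluster, whereas the Tmem176b/Aif1 state carried C1qb and the class II gene H2-Eb1, known from macrophages.

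The DCIR group did not follow that order. Clec4a3 was highest in Tmem176b/Aif1 (129 CPM) and C6/Ifnb1 cells (103), whose intervals overlapped, and lower in Thbs1/Vcan (59.6), Birc5 (45.3) and Fabp5/Slc25a4 cells (33.3). Clec4a2 was highest in Tmem176b/Aif1 (185) and Birc5 cells (168), also with overlapping intervals. Clec4a1 was at 53.3 in C6/Ifnb1, 43.3 in Thbs1/Vcan and 38.5 in Tmem176b/Aif1 cells and lowest in Fabp5/Slc25a4 cells, at 14.1. Clec12a ran from 20.1 in Thbs1/Vcan cells through 21.2 in Fabp5/Slc25a4, 31.6 in Tmem176b/Aif1 and 37.0 in C6/Ifnb1 to 39.3 in Birc5 cells. Clec4n ran from 279.5 in Birc5 to 463 in Tmem176b/Aif1 cells. Clec5a was highest in Birc5 cells at 199 (167 to 236) and next highest in Thbs1/Vcan cells at 153 (142 to 164). Clec10a lay between 7.06 and 16.5 CPM in all 5 monocytic-like states, with overlapping intervals. The Fabp5/Slc25a4 cells were shallow, with a median of 897 UMIs, and a Ptprc UMI was found in 16.9% of them and 27.5% of Tmem176b/Aif1 cells, with Birc5 cells in between, against 91.1% of Thbs1/Vcan and 82.2% of C6/Ifnb1 cells, whose medians were 10621 and 13220.5 UMIs. The part of depth and of Ptprc in these differences was not tested.

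**Figure D2:**
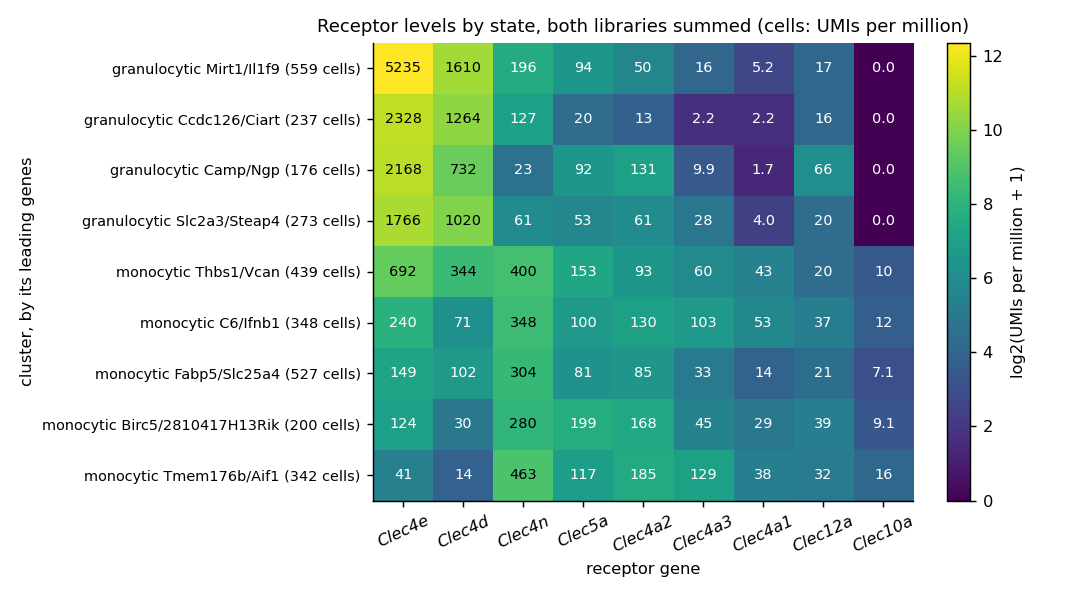
Levels of the receptor genes in each of 9 states, both libraries summed. Colour gives log2 of the CPM plus 1, and the number in each field gives the CPM. Clec4e falls from 5235 in the Mirt1/Il1f9 state to 41.2 in the Tmem176b/Aif1 state, and the 4 granulocytic-like states hold 0 Clec10a UMIs.

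Between the libraries, Clec4d and Clec4e were the 2 of 9 receptors that were more than 2-fold higher in the monocytic-like cells of the library labelled 4T1m than in those of the library labelled 4T1p, and none was more than 2-fold lower. Among 7511 genes with at least 100 UMIs, 7.1% were more than 2-fold higher and 1.44% more than 2-fold lower in 4T1m, with a median log2 ratio of 0.14. The log2 ratio was 1.13 (1.03 to 1.22) for Clec4e and 1.04 (0.90 to 1.19) for Clec4d. In thinned monocytic-like cells, 15.0% of 4T1p and 26.8% of 4T1m cells had a Clec4e UMI. Both values are close to the 2-fold limit, and with TMM scaling, which takes out most of the shift of all genes, neither receptor passed it.

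The libraries differed in the states that made up their monocytic-like cells. Thbs1/Vcan cells were 11.7% of monocytic-like cells in 4T1p and 34.0% in 4T1m, while Tmem176b/Aif1 cells were 29.1% and 9.16%. The summed levels and the weighting by state use UMIs and not cells. Of the monocytic-like UMIs, Thbs1/Vcan cells held 23.97% in 4T1p and 54.13% in 4T1m. C6/Ifnb1 cells held 48.98% and 30.03%, and Tmem176b/Aif1 cells 11.4% and 2.8%. Thbs1/Vcan and C6/Ifnb1 cells thus held most of the monocytic-like UMIs of each library. Within the Thbs1/Vcan state Clec4e stood at 506 CPM in 4T1p and 746 in 4T1m, a log2 ratio of 0.56 (0.43 to 0.69), and within the C6/Ifnb1 state at 178 and 305, a log2 ratio of 0.77 (0.59 to 0.95). In Fabp5/Slc25a4 cells the order was reversed, with 197 in 4T1p and 112 in 4T1m, a log2 ratio of -0.81 (-1.30 to -0.32). Clec4d differed by 0.32 (0.14 to 0.50) within Thbs1/Vcan and by 0.35 (0.02 to 0.68) within C6/Ifnb1 cells. The granulocytic markers summed to 819 CPM in monocytic-like cells of 4T1p and 1149 in those of 4T1m. They were at 383 and 1078 in Thbs1/Vcan, 1089 and 1311 in C6/Ifnb1 and 1030 and 1373 in Fabp5/Slc25a4 cells. The part of such RNA in the Clec4e and Clec4d differences was not tested. With each 4T1m state weighted by its share of the monocytic-like UMIs of 4T1p, the log2 ratio was 0.59 for Clec4e and 0.32 for Clec4d, and no receptor passed 2-fold.

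Clec5a was also higher in the monocytic-like cells of 4T1m, with 148 against 96.0 CPM, a log2 ratio of 0.62 (0.46 to 0.78), and 0.54 with the states weighted as in 4T1p. It was higher within C6/Ifnb1 cells, by 0.86 (0.58 to 1.15), and within Thbs1/Vcan cells, by 0.48 (0.20 to 0.76). Clec4n differed by 0.19 (0.10 to 0.28), near the median of 0.14 over all genes. Clec4a3 had a log2 ratio of -0.37 (-0.56 to -0.18) and Clec12a of -0.44 (-0.76 to -0.12). The interval of Clec4a1 (-0.26) ended just below 0, and its direction turned without the upper limits on genes and UMIs and in thinned cells. The intervals of Clec4a2 (-0.16) and Clec10a (-0.47) included 0.

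In granulocytic-like cells the strongly expressed pair differed little. Clec4e was at 3556 CPM in 4T1p and 3489.5 in 4T1m, a log2 ratio of -0.03 (-0.09 to 0.03), and Clec4d had a log2 ratio of 0.13 (0.03 to 0.24). Within single states Clec4e was at 1302 and 2637.5 CPM in Ccdc126/Ciart cells of 4T1p and 4T1m, a log2 ratio of 1.02 (0.76 to 1.29), and the ratio was 0.74 (0.38 to 1.12) in Slc2a3/Steap4, 0.18 (0.03 to 0.33) in Camp/Ngp and -0.01 in Mirt1/Il1f9 cells. Of 611 genes with at least 100 UMIs in Ccdc126/Ciart cells, 5.4% were more than 2-fold higher in 4T1m and 3.44% more than 2-fold lower. With states weighted as in 4T1p the lineage ratio of Clec4e was 0.11. Clec4n was the 1 receptor past 2-fold, lower in 4T1m, with 207 CPM (167 UMIs) in 4T1p and 93.6 (288 UMIs) in 4T1m. Its log2 ratio was -1.15 (-1.43 to -0.86). Among 3043 genes with at least 100 UMIs in these cells, 2.89% were more than 2-fold lower and 5.95% more than 2-fold higher, with a median log2 ratio of 0.09. Of the 9 receptors, 6 had at least 100 UMIs there.

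The lower Clec4n of 4T1m was seen within the Mirt1/Il1f9 state, where 4T1p had 317 and 4T1m 157 CPM, a log2 ratio of -1.02 (-1.34 to -0.69). Of 1830 genes with at least 100 UMIs in that state, 3.66% were more than 2-fold lower in 4T1m and 6.5% more than 2-fold higher. In the other 3 granulocytic-like states the Clec4n ratio was also below 0, from -0.85 to -0.33. Each of these states held 28 to 57 Clec4n UMIs, and the intervals included 0. With the states weighted as in 4T1p the lineage ratio of Clec4n was -0.96, just inside 2-fold. With only the cells that held a Ptprc UMI no receptor passed 2-fold. Thinned granulocytic-like cells with a Clec4n UMI made up 17.1% in 4T1p and 8.23% in 4T1m. The 10 monocytic markers summed to 1058 CPM in the granulocytic-like cells of 4T1p and 675 in those of 4T1m, and the part of such RNA in the Clec4n difference was not tested. Per 1000 of these UMIs there were 196 Clec4n UMIs in 4T1p and 139 in 4T1m, against 7.40 and 16.1 in monocytic-like cells. Clec5a was lower in 4T1m as well, 73.8 against 101, a log2 ratio of -0.45 (-0.82 to -0.06). The intervals of Clec4a2 (-0.29) and Clec12a (-0.30) included 0. Those of Clec4a1 (0.65, 14 UMIs) and Clec4a3 (0.84, 55 UMIs) did so as well, and Clec10a had no UMI.

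**Figure D3:**
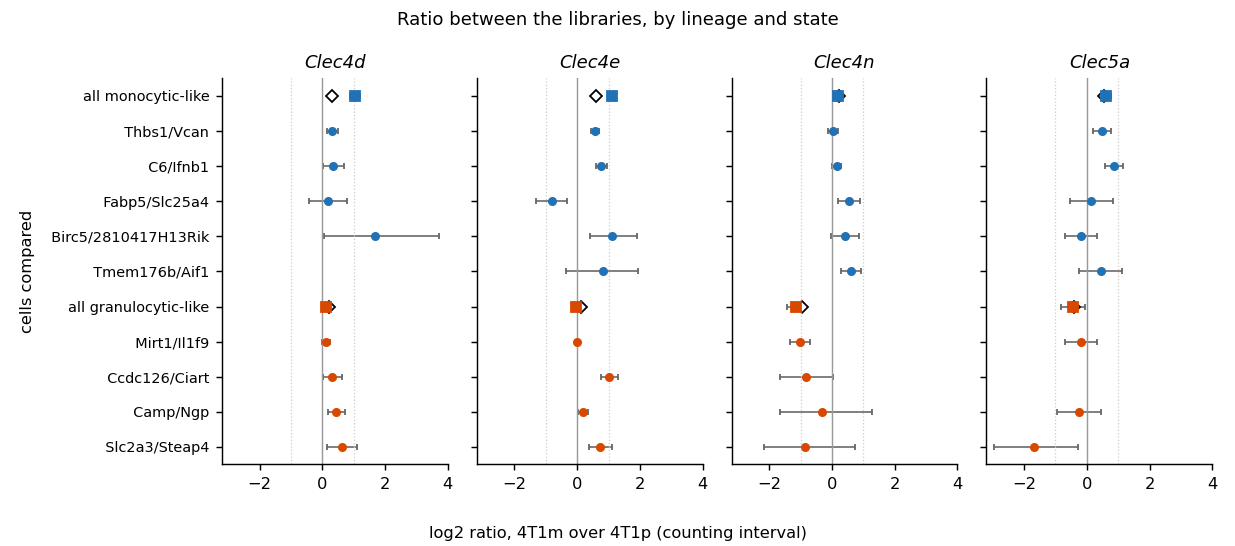
Log2 ratio of 4T1m over 4T1p for 4 receptors in all cells of a lineage (squares) and within each state (circles), with 95% counting intervals, blue for monocytic-like and orange for granulocytic-like cells. Open diamonds give the lineage ratio with states weighted as in 4T1p, dotted lines mark 2-fold, and groups with under 20 UMIs are left out. The Clec4d and Clec4e squares of monocytic-like cells (1.04 and 1.13) lie to the right of their diamonds (0.32 and 0.59), and the Clec4n square of granulocytic-like cells lies at -1.15.

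Co-detection of Clec4d and Clec4e in single cells was close to what the shares within each state give, or above it in monocytic-like cells of 4T1p. In thinned monocytic-like cells 67 cells, 5.04%, had UMIs of both, where the product of the shares over the lineage is 2.75% and the products within each state add up to 4.39%. A Clec4e UMI was found in 39.9% of the cells with a Clec4d UMI and in 19.1% of those without. Within 4T1p these shares were 38.5% and 13.2%, and within 4T1m 40.3% and 24.1%. Thinned monocytic-like cells with both made up 2.64% in 4T1p (15 cells), against 1.67% from the products within states. In 4T1m they made up 6.83%, against 6.50%. In granulocytic-like cells 56.2% of thinned cells had both, against a product of 54.1% over the lineage and 54.9% within states. Clec4n and Clec4e were together in 6.09% of thinned monocytic-like cells against 5.81% over the lineage and 5.53% within states. Thinned granulocytic-like cells carried UMIs of 1.74 of the 9 receptors on average and monocytic-like cells 0.982, and 6.38% and 36.0% had none. The granulocytic-like mean rests mostly on Clec4e and Clec4d, found in 81.0% and 66.8% of these cells. No other receptor was found in more than 9.96% of them, so the mean does not show a broader set of receptors.

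Over the 18 combinations of state and library, Clec4d and Clec4e had a Pearson correlation of 0.96 of their log2(CPM + 10), and Clec4a1 and Clec4a3 one of 0.86. These are descriptions over groups that share 2 libraries and 2 lineages. Clec4d and Clec4e each correlated at -0.43 or below with Clec4n, Clec5a and the 3 receptors of the DCIR group. Among 6359 genes with at least 200 UMIs, the pattern of Clec4d was most like those of Gadd45a (0.98), Cd24a (0.97) and Smox (0.96), and that of Clec4e most like those of Gadd45a (0.98), Irg1 (0.97) and 2810474O19Rik (0.97). Clec4n was nearest to Ctsz (0.93), Rrbp1 and B2m (both 0.90), Clec4a1 to Ecm1, Ext2 and Ppt2 (0.93 to 0.92), and Clec4a2 to Arpc1b (0.95), Med8 (0.94) and Cotl1 (0.91). Clec4a3 was nearest to Aup1 and Igsf8 (both 0.94) and Atp13a2 (0.92), Clec5a to Map4 (0.89), Fam49b (0.86) and Cdipt (0.85), and Clec12a to Grk6 (0.84), Rab28 (0.77) and Treml2 (0.76).

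**Figure D4:**
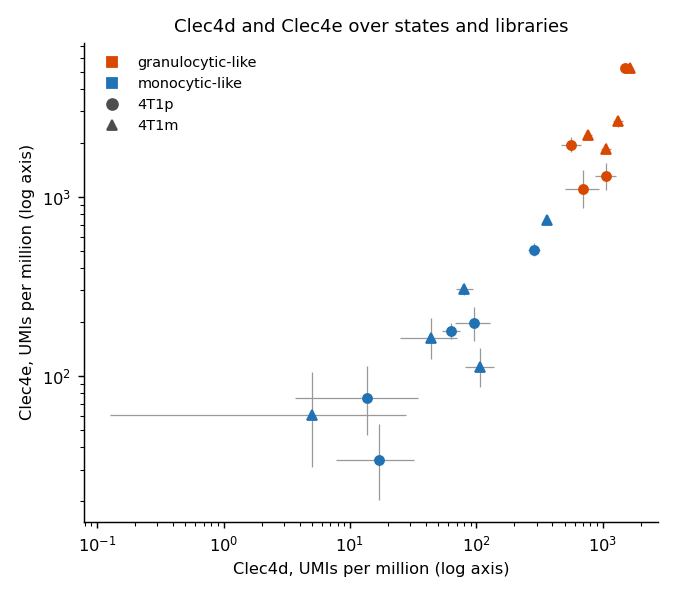
Clec4d against Clec4e in CPM, both on log axes, for each of 9 states in each library, with exact Poisson 95% intervals (circles 4T1p, triangles 4T1m). Over both lineages the 18 points rise together, with the granulocytic-like states at the upper right and the Tmem176b/Aif1 cells, at 9 and 1 Clec4d UMIs in 4T1p and 4T1m, at the lower left.

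The adaptors and kinases of these receptors were measured from a list of 26 genes. Fcer1g was at 2341.5 CPM in granulocytic-like and 1939.8 in monocytic-like cells, and Tyrobp at 2181 and 1542. Of the 26, 3 were more than 2-fold higher in granulocytic-like cells (among them Syk and the adaptor gene Hcst, with log2 ratios of 1.23 and 2.04) and 6 more than 2-fold lower, among them Malt1 (-1.72), Plcg2 (-1.37) and Ptpn11 (-1.96), at a median of 0.04 against -1.15 over all genes. Of all genes 10.8% were more than 2-fold higher and 53.1% more than 2-fold lower. In monocytic-like cells, 6 of the 26 were more than 2-fold higher in 4T1m, where 7.1% of all genes were, and 0 lower, where 1.44% were. With states weighted as in 4T1p, 3 of the 6, Malt1, Nfkb1 and Rel, passed 2-fold, against 4.49% of all genes. The 6 were Malt1 (1.88), Nfkb1 (1.42), Rel (1.26), Traf6 (1.12), Vav3 (1.02) and Syk (1.00), whereas Fcer1g had a log2 ratio of -0.44 (-0.48 to -0.40) and Card9, with 152 UMIs, one whose interval included 0. In granulocytic-like cells Nfkb1 (1.06) and Rel (1.02) were the 2 of 19 measured genes more than 2-fold higher in 4T1m, where 5.95% of all genes were. Fcer1g was at -0.41 (-0.48 to -0.34) in these cells.

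Of 15 cytokines and early genes that these receptors are known to induce, 11 had at least 100 UMIs in monocytic-like cells. Of these, 5 were more than 2-fold higher in the library labelled 4T1m, namely Ptgs2 (2.06), Il23a (1.74), Cxcl1 (1.32), Il6 (1.21) and Il1b (1.03). This direction rests on the deposited labels, whose UMI medians were exchanged relative to the study's methods, so it is not assigned to sensitive or resistant tumors here. The number more than 2-fold lower was 0, and the median was 0.98 against 0.14 over all genes. Of all genes 7.1% were more than 2-fold higher and 1.44% more than 2-fold lower. With states weighted as in 4T1p, 2 (Ptgs2 and Il23a) were more than 2-fold higher and 2 (Egr1 and Egr2) more than 2-fold lower, with a median of 0.61. Weighted in this way, 4.49% of all genes were more than 2-fold higher and 1.01% more than 2-fold lower. In granulocytic-like cells none of the 8 measured genes passed 2-fold, with a median of 0.05. Between the lineages 12 genes of the list were measured, and 5 were more than 2-fold higher in granulocytic-like cells, among them Cxcl2 (1.69), Il1b (1.35) and Nlrp3 (1.15), and 5 more than 2-fold lower, namely Cxcl1 (-2.35), Tnf (-1.04), Il10 (-4.90), Il6 (-5.81) and Egr2 (-2.45). Of all genes 10.8% were more than 2-fold higher and 53.1% more than 2-fold lower in granulocytic-like cells. Of 31 other C-type lectin-like receptor genes, 12 had at least 100 UMIs when both lineages were summed. Of these, 3 were more than 2-fold higher in granulocytic-like cells, among them Clec2d (2.20), and 7 were more than 2-fold lower, among them the mannose receptor gene Mrc1 (-5.62), the scavenger receptor gene Colec12 (-7.04), Cd72 (-5.46) and Mgl2 (-6.14), the near copy of Clec10a. The count of 7 lower is thus to be read beside the 53.1% of all genes that were lower. The median over the 12 was -3.41, against -1.15 over all genes. In granulocytic-like cells alone 5 genes of this list had at least 100 UMIs, against 10 in monocytic-like cells alone. The limit on the sum thus admitted genes through monocytic-like cells, and the median and the count of 7 depend on it. In monocytic-like cells Olr1, the receptor for oxidized low-density lipoprotein, was more than 2-fold higher in 4T1m (1.74), and Cd69 (-1.34) and Cd72 (-1.01) were more than 2-fold lower, while 0 of 5 measured genes passed 2-fold in granulocytic-like cells. Of all genes, 7.1% were higher and 1.44% lower by that measure in monocytic-like cells, and 5.95% and 2.89% in granulocytic-like cells.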

How the data were processed

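Single-cell 3′ v3 libraries of GR-1+ cells were analysed from the deposited filtered matrices. Per the file headers and the submitters' processing notes, the authors aligned reads with Cell Ranger to mm10 (GRCm38), and deposited UMI counts that were not normalized, with genes in rows and barcodes in columns. The matrix header names software version 3.1.0, whereas the study's methods name a later Cell Ranger. Barcodes with 250 to 5000 genes, at most 27000 UMIs and at most 12.5% mitochondrial UMIs were kept, and the 13 and 44 cells with the highest Scrublet scores, 1% per 1000 cells, were removed. SCTransform on 3000 variable genes, without the Clec genes and the listed C-type lectin-like receptor genes, was followed by 11 principal components. Louvain clustering at resolution 0.8 gave 11 clusters. Lineages were named from lists of 10 monocytic, 8 granulocytic, 3 B cell and 3 T cell markers, and each state from its leading genes.

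Counts were summed per group as counts per 1000000 UMIs (CPM) with exact Poisson intervals. Ratios carry exact binomial intervals. A gene was measured in a comparison at 100 or more UMIs, summed over the 2 groups compared, and counted when past 2-fold. Shares given for thinned cells, with those of co-detection, were computed after thinning to 1000 UMIs. Cells with under 1000 UMIs were left out of them. Of monocytic-like cells, 568 of 862 remained in 4T1p and 761 of 994 in 4T1m. By state, 224 of 527 Fabp5/Slc25a4 and 431 of 439 Thbs1/Vcan cells remained, so the thinned shares describe the deeper cells. Other shares of cells with a UMI, such as those of Ptprc, Ly6g, Csf3r and Il1r2, used all UMIs and so also depend on depth. No test was possible with 1 library per condition. All 9 receptors were described in the comparisons of lineages and libraries, and by state a part of them, chosen after their values were seen. From each list, genes past 2-fold with the most UMIs could be named, at most 8 per list; Fcer1g, Tyrobp and Card9 were named in addition, after their values were seen. For likeness, the 3 genes with the highest Pearson correlation were named. The Ptprc requirement of the study was tried as an alternative. The members and lists were chosen with earlier results of these data known. The ratio and interval were tried on simulated Poisson counts of summed groups, the same error that the interval assumes. The simulation held no variation between cells or animals, so it does not show how the intervals cover such variation. The tools were sctransform 0.4.2, Seurat 5.3.0 and edgeR 4.0.16 (TMM factors only) under R 4.3.3, and scipy 1.17.1, numpy 2.4.6 and scanpy 1.11.5 under Python 3.11.15.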

Additional observations from a re-analysis of the deposited data

Results flagged for a closer look

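Clec4n and Clec5a had log2 ratios of opposite sign between the libraries in the 2 lineages, small for Clec4n in monocytic-like cells. The log2 ratio of 4T1m over 4T1p for Clec4n was 0.19 in monocytic-like and -1.15 in granulocytic-like cells, and for Clec5a it was 0.62 and -0.45. All 4 counting intervals excluded 0, and the signs were kept under all 16 alternatives. The 0.19 of Clec4n was, however, near the median of 0.14 over all genes in monocytic-like cells, and its lowest alternative was 0.04. In monocytic-like cells Clec4n thus differed little from genes in general. With 1 library per condition the difference between the lineages was not tested.

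Barcodes left out by the filters also held receptor UMIs. Those with under 250 genes held 87, a level of 84.2 CPM for Clec4d and 63.1 for Clec4e. Those over 5000 genes or 27000 UMIs held 4147, with Clec4n at 318 and Clec4e at 247 CPM. Those over the limit on mitochondrial UMIs held 4675, with Clec4e at 1074 CPM.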

How the results depend on the processing

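Under 13 alternative settings and 3 chosen after seeing the data, 15 of the 18 log2 ratios whose interval excluded 0 kept their direction throughout. The exceptions were Clec4a2 (0.27) and Clec5a (0.28) between the lineages with TMM factors, and Clec4a1 between the libraries in monocytic-like cells, at 0.17 with no upper limit on genes and UMIs and 0.08 in cells thinned to 1000 UMIs. Between the lineages Clec4d (2.25 to 3.70) and Clec4e (2.63 to 4.07) stayed past 2-fold in all 15 alternatives run there, but the other calls between the lineages did not all hold. With TMM factors Clec12a (1.17) joined them and Clec4n (-0.70) left the 4 lower receptors, giving 3 higher and 3 lower. The TMM factors raised the log2 ratio of every gene by 0.96 in this comparison. With the mean over cells (-1.19) and in thinned cells (-1.16) Clec4a2 also passed, giving 5 lower. The 2 receptors more than 2-fold higher in monocytic-like cells of 4T1m became 1, Clec4e, with only cells holding a Ptprc UMI and without the Fabp5, Tmem176b and Birc5 clusters, and 0 with TMM factors and with states weighted as in 4T1p. The count of 0 more than 2-fold lower became 1, Clec10a, at no more than 5% mitochondrial UMIs. In granulocytic-like cells the 1 more than 2-fold lower, Clec4n, became 0 with only cells holding a Ptprc UMI and with states weighted as in 4T1p, where the ratio still lay between -1.22 and -0.96 over all 16. The cause of these changes was not tested, beyond what each alternative changes by construction. Except for the weighting by state, the share of all genes past 2-fold was not computed under the alternatives. The receptor counts under them therefore have no such share beside them. With states weighted as in 4T1p, also chosen after seeing the data, the signalling genes more than 2-fold higher in monocytic-like cells of 4T1m fell from 6 to 3 and the cytokine and early genes from 5 to 2. Over all genes that share fell from 7.1% to 4.49%. No paired analysis was possible because there was 1 library per condition.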
